A study of Mus musculus with 19 samples.

Results

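The mutations described here are the expressed, protein-altering changes of 2 mouse skin squamous cell carcinomas in which an A:T base pair was replaced by T:A. They were taken from the authors' table of nonsynonymous mutations read out of RNA sequencing, as every unique position with reference A and alternative T, or reference T and alternative A, outside chromosomes 17 and Y, in any library. This gave 217 sites in 209 genes, out of 492 single-base changes on the same chromosomes (44.1%) and 656 unique mutations in the whole table. The other 275 single-base changes lay in 241 genes and were 72 C:G to T:A, 67 C:G to A:T, 56 A:T to G:C, 52 A:T to C:G and 28 C:G to G:C changes. A further 12 changes from A:T to T:A on chromosomes 17 and Y were not members.

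The tumours were allografts in skin, grown from 10000 cells injected intradermally, and were labelled C57BL/6. Each RNA library came from 100000 sorted cells. Quiescent cells had low CD71 (the transferrin receptor) and a high H2BGFP label, a histone tag that is diluted when cells divide, and proliferative cells had high CD71 and a low label. There was 1 quiescent and 1 proliferative library from each of the tumours SCC1 and SCC2, which the study's design text calls independent. The sources used here do not give how the tumours were induced, which promoter drives the H2BGFP label or whether animals were pooled. With 1 library per population and tumour, every test on reads below compares libraries, and the spread over samples comes from 2 tumours.

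A base substitution in a gene that is transcribed can be seen in its RNA, and the share of reads with the new base depends on how many gene copies and cells carry it and on how strongly each allele is expressed. Chemical carcinogens leave characteristic substitutions, and in mouse skin the carcinogen DMBA is known for changing A to T, often at the glutamine codon of Hras whose loss keeps the RAS switch protein in its active state. Trp53 encodes p53, a transcription factor that arrests or kills damaged cells and that many squamous carcinomas lose by mutation.

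The members made up 160 of 333 single-base changes listed in SCC1 quiescent cells (48.0%) and 186 of 395 in SCC1 proliferative cells (47.1%). In SCC2 they were 29 of 60 in quiescent cells (48.3%) and 168 of 341 in proliferative cells (49.3%). Sites in the table had read depths from 10 to 1504, so a site that is not listed in a library may only have had too few reads there. The median depth at the members was 42 reads in SCC1 quiescent cells and 37 in SCC1 proliferative cells. It was 16 in SCC2 quiescent cells and 37.5 in SCC2 proliferative cells, and the SCC2 quiescent library had the fewest listed sites. Although the tumours were called independent, 149 of the 217 members (68.7%, exact 95% interval 62.0 to 74.8) were listed in both of them, at the same position and with the same alternative base. Of the rest, 49 were listed in SCC1 only and 19 in SCC2 only. Sharing was not limited to the members. Of the 275 other single-base changes, 140 were listed in both tumours (50.9%, exact 95% interval 44.8 to 57.0). Another 96 of those changes were listed in SCC1 only and 39 in SCC2 only. The sources used here do not say whether SCC1 and SCC2 share an origin, so 2 tumours may not count as 2 separate replicates.

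Hras and Trp53 both carried members. Hras, a small GTPase of the RAS family, had the change Q61L (chromosome 7, position 141192550 of build mm10, exon 3 of NM_001130443, a coding exon read from the minus strand). The alternative base was in 67% of 360 reads in SCC1 quiescent cells and 62% of 561 reads in SCC1 proliferative cells. In SCC2 it was in 62% of 52 reads in quiescent cells and 57% of 405 reads in proliferative cells. The exact 95% intervals of these shares all overlapped (61.8 to 71.8, 57.9 to 66.1, 47.0 to 74.7 and 52.1 to 61.9). The first and the last of them overlapped only barely. By Fisher exact tests per site, Hras was not called between the populations of either tumour. Nor was it called between the proliferative libraries (adjusted Fisher exact p of 0.314). SCC1 quiescent cells were not tested against SCC2 proliferative cells. The authors' deposited copy number table gave 4 copies at the site in SCC1 and made no call there in SCC2.

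Trp53 had 2 members, 1251 bp apart on chromosome 11. R277S, in exon 8 of NM_001127233 at position 69589630, replaced an arginine of the DNA-binding domain. Its alternative base was in 68% of 214 reads in SCC1 quiescent cells, 63% of 294 in SCC1 proliferative cells, 69% of 35 in SCC2 quiescent cells and 62% of 189 in SCC2 proliferative cells. N128Y, in exon 5 at position 69588379, lies in the same domain. It was in 29% of 91 reads in SCC1 quiescent cells and 32% of 186 in SCC1 proliferative cells, was not listed in SCC2 quiescent cells, and was in 41% of 113 reads in SCC2 proliferative cells. R277S was thus carried by a larger share of reads than N128Y in each library that listed both. At Trp53 the authors' deposited table gave 4 copies for SCC1 and 3 for SCC2.

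Few other members fell in lists of cancer and skin genes. Of 22 genes of the RAS, MAPK and PI3K pathway only Hras had a member, and of 13 genes of the p53 and cell cycle list only Trp53 did. Among 17 chromatin regulators there were Crebbp T2430S and Ep300 R1341W, in the paired acetyltransferases that coactivate transcription. Crebbp T2430S was in 42% of 19 reads in SCC1 quiescent cells, 54% of 26 in SCC1 proliferative cells and 72% of 18 in SCC2 proliferative cells, and Ep300 R1341W was listed in SCC2 proliferative cells only, in 47% of 15 reads. Among 25 genes of squamous fate and adhesion there were Dst E2567V, Krt14 M14L and Ripk4 S739C. Dst encodes a linker between keratin filaments and the basal cell anchor, Krt14 the main basal layer keratin, and Ripk4 a kinase needed for keratinocyte differentiation. No member lay in the list of 8 TGF-beta pathway genes or in that of 7 marker genes of other cell types. The other base changes of the table hit Met, Ep300, Smarca4, Dsp and Krt5 from the same lists.

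Ripk4 S739C was in 47% of 55 reads in SCC1 quiescent cells, 56% of 50 in SCC1 proliferative cells and 71% of 38 in SCC2 proliferative cells. Some members in further well-known cancer genes, chosen after their values were seen, stood at shallow sites. Myc D87E was in 34% of 38 reads in SCC1 quiescent cells and 58% of 40 in SCC1 proliferative cells. Keap1 H96L, in the sensor that restrains the antioxidant factor NRF2, was in 42% of 26 and 24% of 17 reads of the same libraries. Neither Myc D87E nor Keap1 H96L was listed in SCC2. Pml H815L was in every one of 29 reads in SCC1 proliferative cells (100%) and every one of 17 reads in SCC2 proliferative cells (100%).

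The members gave 8 stop codons, or 3.69% of sites (exact 95% interval 1.60 to 7.13), against 8 of the 275 other single-base changes (2.91%). All 8 replaced a lysine or an arginine. The deepest was Mta1 K627X, in a subunit of the NuRD chromatin complex, in 45% of 111 reads in SCC1 quiescent cells, 42% of 119 in SCC1 proliferative cells, 80% of 15 in SCC2 quiescent cells and 56% of 71 in SCC2 proliferative cells. Lpgat1 R374X was in 44% of 52, 47% of 98 and 47% of 77 reads of SCC1 quiescent, SCC1 proliferative and SCC2 proliferative cells. Tada2a K426X, in a subunit of histone acetyltransferase complexes, was in 42% of 33, 45% of 38 and 46% of 39 reads of the same libraries. These 3 had shares between 42% and 56% outside the shallow SCC2 quiescent library.

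Other stop codons were rarer among the reads. Eif4a1 R10X, which would end the helicase of the translation initiation complex near its start, was in 19% of 54 reads in SCC1 quiescent cells, 11% of 74 in SCC1 proliferative cells and 13% of 72 in SCC2 proliferative cells. Amz2 R356X was in 15% of 69, 25% of 114 and 37% of 92 reads of those libraries. Snapc1 K305X was in 23% of 22 reads in SCC1 quiescent cells and 13% of 32 in SCC1 proliferative cells. Def8 K383X was listed in SCC1 quiescent cells only, in 46% of 11 reads.

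The most frequent amino acid change was the one found in Hras. Glutamine was replaced by leucine at 36 of the 217 sites (16.6%), 30 of them listed in both tumours. Histidine to leucine followed with 20 sites, threonine to serine with 19, glutamate to valine with 13, serine to cysteine with 12, and aspartate to valine and isoleucine to phenylalanine with 10 each. By the standard genetic code, a glutamine to leucine change by A to T needs the codon CAA or CAG with its middle base changed, and histidine to leucine needs CAC or CAT. Members of the glutamine to leucine kind included Deaf1 Q477L, Acot13 Q47L, Ece1 Q666L, Fes Q640L and Srm Q206L. Where A became T at codon position 2, the base before it on the coding strand, read from the residue change, was C at 56 of 105 sites (53.3%). It was C at 11 of 28 A to G sites (39.3%) and at 11 of 22 A to C sites (50.0%), and these intervals overlapped. H2afy M1L removed the start codon of the histone variant macroH2A, in 29% of 124 reads in SCC1 quiescent cells, 23% of 150 in SCC1 proliferative cells and 41% of 85 in SCC2 proliferative cells.

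The changed base pair had a preferred orientation. The A of the original pair lay on the coding strand, the strand that reads like the RNA, at 192 of the 217 sites, and the T did at 25 (88.5% with A, exact 95% interval 83.5 to 92.4). Counted over the sense codons of the standard genetic code, A to T alters the protein at 35 of 44 codon positions with an A, and T to A does so at 36 of 45 positions with a T. A lay on the coding strand at 69 of 73 members at codon position 1, 105 of 121 at position 2 and 18 of 23 at position 3. By library the share was 91.9% in SCC1 quiescent cells, 90.9% in SCC1 proliferative cells, 96.6% in SCC2 quiescent cells and 90.5% in SCC2 proliferative cells. Sites listed in both tumours had A on the coding strand at 138 of 149 (92.6%), and sites listed in 1 tumour at 54 of 68 (79.4%).

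Purines lay more often on the coding strand in the other base changes too. The share was 46 of 55 for A:T to G:C (83.6%) and 39 of 52 for A:T to C:G (75.0%). For changes of a C:G pair the purine G was on the coding strand at 46 of 67 C:G to A:T sites (68.7%), 19 of 28 C:G to G:C sites and 47 of 71 C:G to T:A sites (66.2%). The interval of the members did not overlap those of C:G to A:T (56.2 to 79.4) and C:G to T:A. It overlapped those of C:G to G:C (47.6 to 84.1) and of both other A:T changes. Codon use in the expressed genes was not part of this comparison, and its part in the strand shares was not tested.

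**Figure D1:**
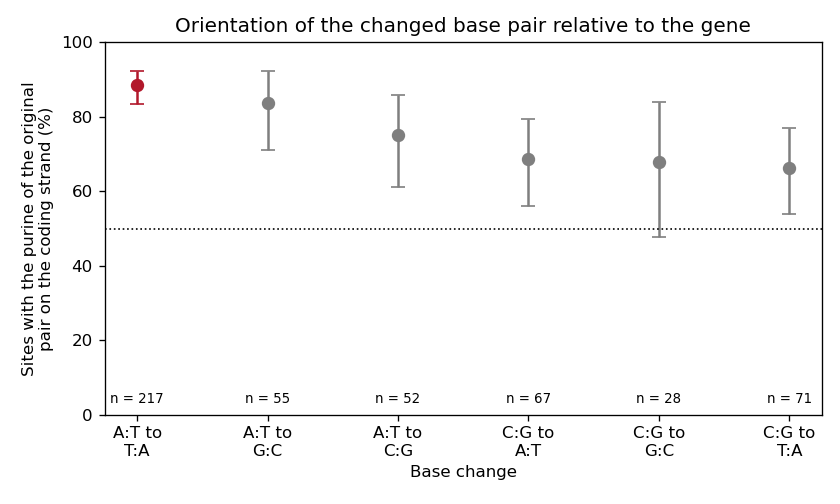
Share of sites, in percent, whose original base pair had its purine on the coding strand, for each kind of base change, with exact 95% binomial intervals and the number of sites; the dotted line marks 50%. The A:T to T:A changes stand highest at 88.5%, and C:G to T:A lowest at 66.2%.

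Most members in each library had alternative reads at 30% to 70% of the total. The median share of alternative reads over the members was 44% in SCC1 quiescent cells and 47% in SCC1 proliferative cells, and 46% in SCC2 quiescent cells and 46.5% in SCC2 proliferative cells. Shares from 30% to 70% held 65.0% and 69.4% of the members in SCC1 quiescent and proliferative cells, and 72.4% and 70.2% in SCC2 quiescent and proliferative cells. The other base changes had 57.8%, 55.0%, 45.2% and 62.4% of their sites in that range in the same order of libraries. Shares under 20% were found for 5.63%, 1.61%, 3.45% and 4.76% of the members, against 13.9%, 13.9%, 12.9% and 11.0% of the other changes. In SCC1 proliferative cells the intervals of this low class did not overlap (0.334 to 4.64 for members, 9.49 to 19.3 for other changes). They did overlap in SCC1 quiescent cells (2.60 to 10.4 and 9.10 to 19.9) and in both SCC2 libraries.

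Members were 48.2% ± 0.202 of single-base changes in quiescent libraries and 48.2% ± 1.54 in proliferative libraries (SD, n = 2 each), a difference of 0.0130 percentage points with a two-sided exact permutation p of 1. The quiescent minus proliferative difference was 0.959 points in SCC1 and -0.934 points in SCC2. The median allele share was 45.0% ± 1.41 in quiescent libraries and 46.8% ± 0.354 in proliferative libraries (SD, n = 2 each), a difference of -1.75 points with an exact permutation p of 0.333. Both quiescent medians lay under both proliferative ones, and 0.333 is the smallest p that 2 libraries against 2 allow, so the design cannot test this difference at 0.05.

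**Figure D2:**
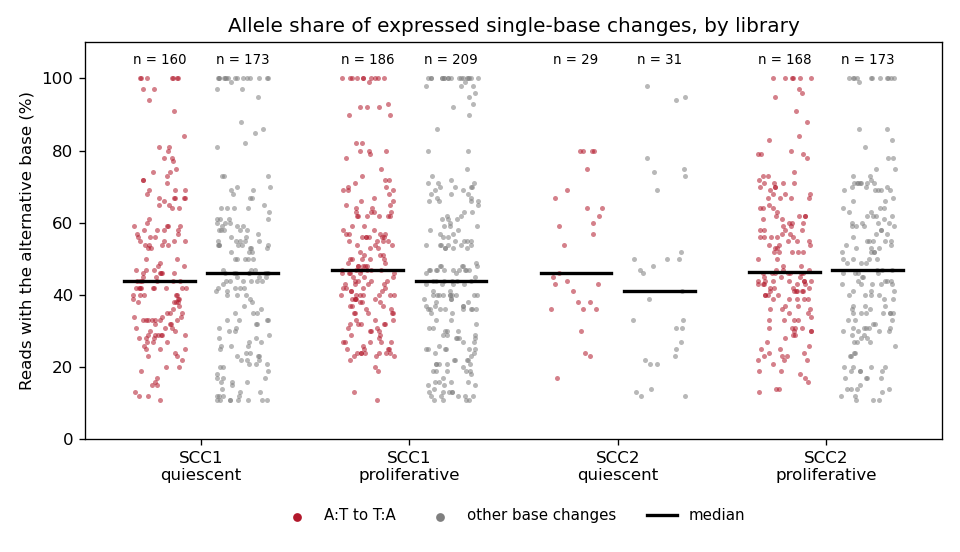
Share of reads with the alternative base, in percent, at each listed single-base change of each library, with A:T to T:A changes in red left of the other changes in grey, bars at the medians and the number of sites above. Medians of the A:T to T:A changes lie between 44% and 47%, and shares under 20% are fewer among them than among the other changes in each library.

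How many members were found in both tumours followed the read depth. Among members of the SCC1 proliferative library with 10 to 19 reads there, 22 of 52 (42.3%) were also listed in SCC2 proliferative cells, and with 20 to 49 reads 46 of 55 (83.6%) were. With 50 to 99 reads it was 31 of 31, and with 100 or more reads 48 of 48 (100% in both, lower bounds 88.8 and 92.6). Every member with 50 or more reads in SCC1 proliferative cells was therefore also listed in SCC2. The other base changes were listed in SCC2 at 20 of 48 (41.7%), 40 of 76 (52.6%), 37 of 42 (88.1%) and 33 of 43 sites (76.7%) at the same depths. The intervals of the members and the other changes did not overlap at 20 to 49 reads or at 100 or more reads. In the opposite direction, 31 of 32 members with 100 or more reads in SCC2 proliferative cells were listed in SCC1 proliferative cells (96.9%). Depth in SCC2 quiescent cells was low, and of the members of SCC2 proliferative cells with 100 or more reads 18 of 32 (56.2%) were listed in SCC2 quiescent cells, against 0 of 49 with 10 to 19 reads.

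**Figure D3:**
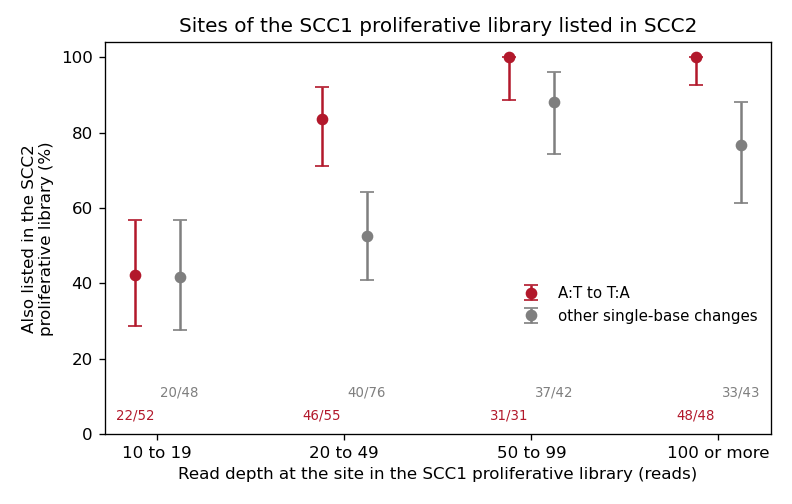
Share of sites of the SCC1 proliferative library, in percent, that were also listed in the SCC2 proliferative library, by read depth in SCC1, for A:T to T:A changes (red, left) and other single-base changes (grey, right), with exact 95% binomial intervals and counts. Members reach 31 of 31 and 48 of 48 in the deepest classes, where the other changes have 37 of 42 and 33 of 43.

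The 4 libraries listed members in few combinations. The largest group, 105 sites, was listed in all libraries except SCC2 quiescent cells, and 29 sites were in all 4 libraries. All 29 members of SCC2 quiescent cells belonged to these 29. A further 25 were listed in SCC1 proliferative cells alone, 19 in SCC2 proliferative cells alone and 14 in both SCC1 libraries. Another 13 were in both proliferative libraries, 10 in SCC1 quiescent cells alone and 2 in SCC1 quiescent and SCC2 proliferative cells. The other single-base changes had the same largest group, with 93 sites, and 23 sites in all 4 libraries. Of those changes 48 were in SCC1 proliferative cells alone, 35 in SCC2 proliferative cells alone and 20 in SCC1 quiescent cells alone.

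Besides Hras and Trp53 R277S, the 29 sites in all 4 libraries included the keratins Krt14 and Krt15 and the keratin linker Dst. Among them Ncl K225M lies in nucleolin, a protein of ribosome assembly, and its alternative base was in 33% of 187 reads in SCC1 quiescent cells, 43% of 379 in SCC1 proliferative cells, 64% of 14 in SCC2 quiescent cells and 43% of 294 in SCC2 proliferative cells. Usp5 R855S, in an enzyme that recycles ubiquitin chains, varied little, with 54% of 210, 51% of 287, 54% of 26 and 55% of 217 reads in the same order. Fxr1 T551S, in an RNA-binding protein related to FMRP, likewise had 39% of 158, 40% of 155, 46% of 13 and 41% of 153 reads. Galnt18 I447F had the lowest mean share over the 4 libraries, with 31% of 58, 30% of 30, 24% of 17 and 14% of 42 reads. Zfp622 R471W had 42% of 224 and 40% of 160 reads in SCC1 quiescent and proliferative cells, against 17% of 29 and 23% of 92 in SCC2 quiescent and proliferative cells. At Galnt18 and Zfp622 both SCC2 libraries lay under both SCC1 libraries.

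**Figure D4:**
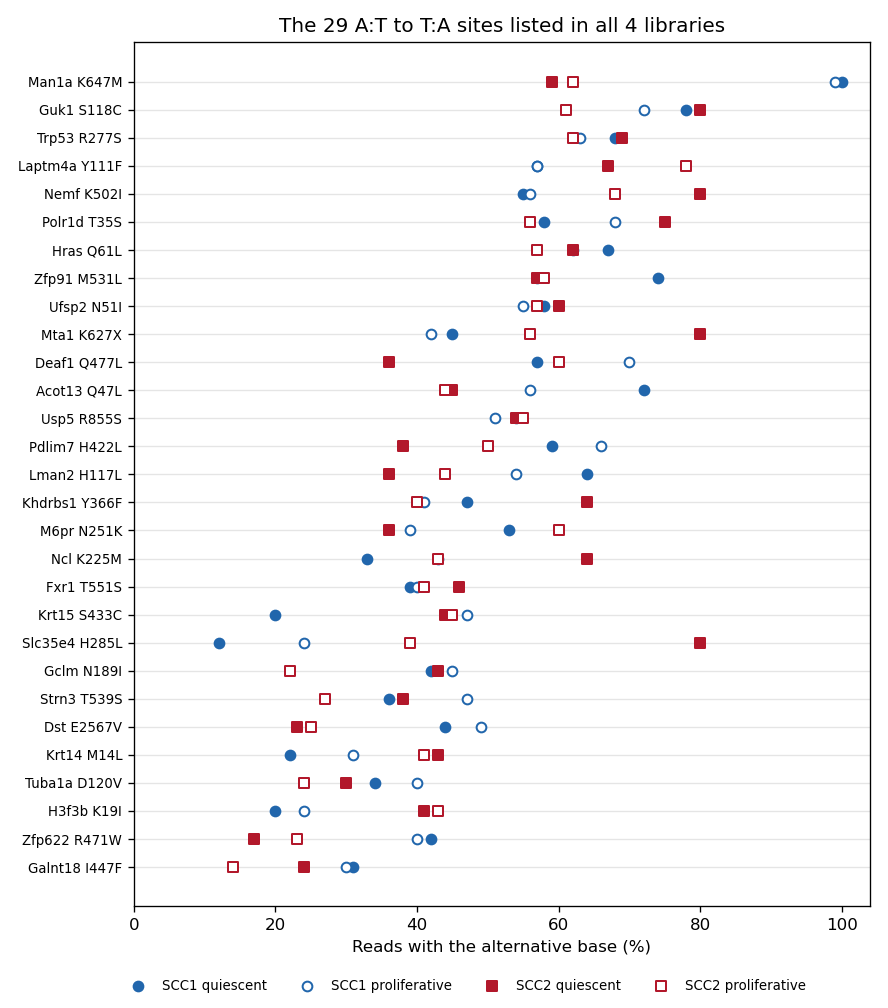
Share of reads with the alternative base, in percent, at the 29 A:T to T:A sites listed in all 4 libraries, ordered by their mean share; circles are SCC1 and squares SCC2, filled for quiescent and open for proliferative cells. Man1a K647M stands at 99% to 100% in SCC1 and at 59% and 62% in SCC2, and filled squares far from the rest have low depth, such as Slc35e4 H285L with 10 reads.

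Allele shares of quiescent and proliferative cells were next compared within each tumour. In SCC1 the shares at 148 members listed in both populations had a Pearson r of 0.83 across sites, a median absolute difference of 7 percentage points, and 100 of 148 sites within 10 points. In SCC2 the 29 shared members had an r of 0.65, a median absolute difference of 8 points and 16 of 29 sites within 10 points. The other single-base changes had an r of 0.88 over 146 sites in SCC1 and 0.84 over 25 sites in SCC2. Their median absolute differences were 7 and 9 points. A two-sided Fisher exact test of alternative and reference reads at each site, adjusted by the Benjamini-Hochberg method over all 426 tests in both tumours, called 5 tests (1.17%). Of these, 2 were among the 177 tests on members, both in SCC1. An unadjusted Fisher exact p under 0.05 was found in 18 of the 177 tests on members and in 24 of the 249 other tests. Of all tests, 1.12% of SCC1 tests and 1.43% of SCC2 tests were called, so the members' share was near the background. In SCC1 64 members had the higher share in quiescent cells, 78 the lower and 6 the same, and in SCC2 17 had the higher and 12 the lower. Among the 208 other tests in SCC1, 102 had the higher share in quiescent cells, 77 the lower and 29 the same. For the 41 other tests in SCC2 these counts were 19, 20 and 2.

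Apart from Krt15, the largest differences in SCC1 were at sites with 10 to 26 reads and were not called. Fam135a I1302F was in 48% of 23 reads in quiescent cells and 82% of 22 in proliferative cells, a difference of -34 points. Gnb1l Q140L had 44% of 18 reads in quiescent cells and 71% of 17 in proliferative cells, and Sox9 E57V, with the same difference of -27 points, had 42% of 12 and 69% of 13. Rabgap1l Q64L was in 69% of 16 reads in quiescent cells and 39% of 26 in proliferative cells, a difference of 30 points, and Itsn1 T1205S and Zfp266 K294M were also among the highest. In SCC2 the largest differences were those of Slc35e4, Mta1 and Khdrbs1 on the higher side and of Pdlim7, M6pr and Deaf1 on the lower side, each with 10 to 16 reads in quiescent cells.

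The highest mean shares in SCC1 at sites listed in both of its populations included, besides members of chromosomes 10 and 18, Piga R485W, Ece1 Q666L, Fes Q640L and Usp36 S732C. Ece1 Q666L was in 91% of 35 and 92% of 37 reads in SCC1 quiescent and proliferative cells and in 62% of 13 in SCC2 proliferative cells. Fes Q640L was in 77% of 13, 100% of 10 and 80% of 20 reads of those libraries, and Usp36 S732C in 78% of 18 and 92% of 13 reads of the SCC1 libraries. In SCC2 the highest were Guk1, Nemf, Laptm4a, Mta1, Trp53 R277S, Polr1d, Man1a, Hras, Slc35e4 and Ufsp2, with quiescent shares of 59% to 80%.

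Both called members lie in keratin genes of the basal layer. Krt15 S433C (chromosome 11, position 100132091, exon 8 of NM_008469) was in 20% of 164 reads in SCC1 quiescent cells and 47% of 57 in SCC1 proliferative cells, with an adjusted Fisher exact p of 0.0134. In SCC2 it was in 44% of 163 reads in quiescent cells and 45% of 610 in proliferative cells. Krt14 M14L (chromosome 11, position 100207416, exon 1 of NM_016958) was in 22% of 737 reads in SCC1 quiescent cells and 31% of 722 in SCC1 proliferative cells, with an adjusted Fisher exact p of 0.0134. In SCC2 it was in 43% of 14 reads in quiescent cells and 41% of 277 in proliferative cells. The shares are printed as whole percents, and when the alternative reads were moved by 0.5 percentage points towards the other library the adjusted p was 0.0341 at Krt15 and 0.0751 at Krt14, so the Krt14 call was lost. Keratins have near-identical family members, and Krt16 M14L, the same residue change on the same chromosome, was listed in SCC1 quiescent cells in 13% of 31 reads. How reads were divided between these genes was not tested, and both values are uncertain for that reason.

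A likelihood-ratio test per site asked whether the quiescent minus proliferative difference itself differed between the tumours, at the 52 single-base changes listed in all 4 libraries. It called 5 of 52 (9.62%) at an adjusted p under 0.05, and 3 of the 29 members. These were Krt15 S433C, Slc35e4 H285L and Gclm N189I. The quiescent minus proliferative difference was -27 points in SCC1 and -1 point in SCC2 at Krt15, -12 and 41 points at Slc35e4, and -3 and 21 points at Gclm. The SCC2 quiescent depth was 10 reads at Slc35e4 and 54 at Gclm.

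Between the tumours allele shares differed at more sites than between the populations of SCC1. At the 147 members listed in both proliferative libraries the Pearson r across sites was 0.37, the median absolute difference was 15 points and 56 of 147 sites were within 10 points. For the other single-base changes listed in both, r was 0.55, the median absolute difference 10.5 points and 65 of 130 sites were within 10 points. A Fisher exact test per site between the SCC1 and SCC2 proliferative libraries, adjusted over the 325 shared mutations of the whole table, called 64 (19.7%). This test was added after the data were seen. It called 28 of the 147 members, near the background share, of which 14 were higher and 14 lower in SCC1. The 148 sites compared between populations of SCC1 gave 2 calls, and the difference between these counts was not itself tested.

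Members on 3 chromosomes, picked out after the values were seen, had shares near 100% in 1 tumour. On chromosome 18 the 4 members listed in SCC1 proliferative cells had shares of 93% to 100%, and the 3 of them listed in SCC2 proliferative cells had 23% to 35% there. Wac T354S, in an adaptor of histone H2B ubiquitination, was in 100% of 46 reads in SCC1 quiescent cells and 100% of 62 in SCC1 proliferative cells, against 24% of 45 in SCC2 proliferative cells. Lmnb1 I563F, in the nuclear lamina protein lamin B1, was in 100% of 36 reads in SCC1 proliferative cells and 35% of 40 in SCC2 proliferative cells. Rnmt T331S, in the enzyme that methylates the messenger RNA cap, was in 100% of 25 and 93% of 30 reads in SCC1 quiescent and proliferative cells and in 23% of 22 in SCC2 proliferative cells. All 3 were called, with adjusted Fisher exact p of 5.07e-17, 3.82e-09 and 2.92e-06.

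On chromosome 10 the 5 members listed in SCC1 proliferative cells had 90% to 100%, and the 9 listed in SCC2 proliferative cells had 22% to 79%. Man1a K647M, in a Golgi mannosidase, was in 100% of 89 reads in SCC1 quiescent cells and 99% of 126 in SCC1 proliferative cells, against 59% of 17 in SCC2 quiescent cells and 62% of 130 in SCC2 proliferative cells (adjusted Fisher exact p of 1.93e-14 between the proliferative libraries). Supv3l1 E515V was in 97% of 29 and 100% of 25 reads in SCC1 quiescent and proliferative cells, against 79% of 14 in SCC2 proliferative cells. Bcr R1035W was in 97% of 33 and 100% of 37 reads, against 67% of 21, and Baz2a Q413L in 100% of 13 and 92% of 13 reads, against 79% of 14, in the same libraries. Of these 3, the test between the proliferative libraries called Bcr (adjusted Fisher exact p of 0.0037), the deepest of them. Of the 11 members on chromosome 10, 5 were listed in SCC2 only, among them Cisd1 K32M in 35% of 111 reads, and 2 in SCC1 only. The copy number at members of chromosome 10 was 3 or 4 in both tumours wherever the authors' deposited table gave a call.

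Chromosome 9 showed the opposite. The 5 members listed in SCC2 proliferative cells had 96% to 100%, while the 8 listed in SCC1 proliferative cells ranged from 24% to 100% with a median of 43.5%. Zfp266 K294M was in 43% of 21 reads in SCC1 proliferative cells and 100% of 14 in SCC2 proliferative cells, Ttc12 L611Q in 44% of 16 and 97% of 30, and Nprl2 I224F in 50% of 18 and 100% of 11. Adjusted Fisher exact p for these sites were 0.00525, 9.03e-04 and 0.0329. Pml H815L was at 100% in both libraries. Of the 9 members on chromosome 9, 4 were listed in SCC1 only and none in SCC2 only. Copies were called as 3 at the 4 members nearest the start of chromosome 9 in SCC1, and no call was made at the others or in SCC2.

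The other mutations of these chromosomes, which the choice of members did not use, moved the same way at many sites. On chromosome 10 the test between proliferative libraries called 5 of 9 of them, all higher in SCC1. On chromosome 18 it called 2 of 3, both higher in SCC1, and on chromosome 9 3 of 5, all lower in SCC1. Outside these 3 chromosomes 20 of 136 members (14.7%) were called, 9 higher and 11 lower in SCC1, with a median difference of -1.5 points, near the 26 of 161 other mutations (16.1%) called there.

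**Figure D5:**
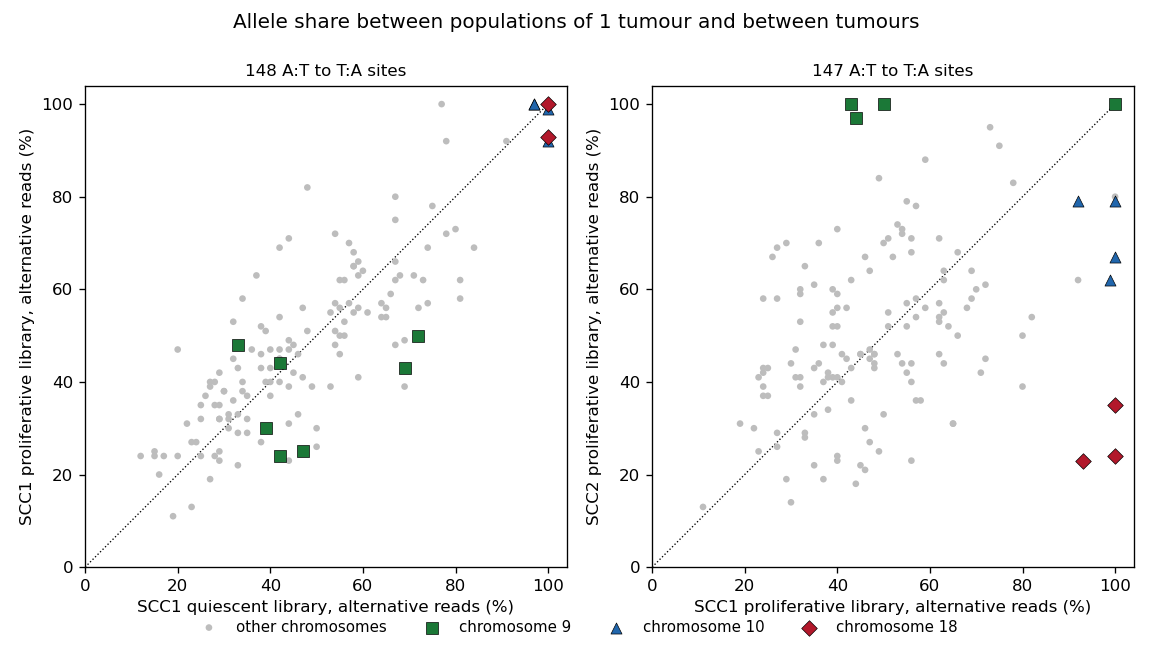
Share of reads with the alternative base, in percent, at A:T to T:A sites listed in both libraries of a pair, left for quiescent against proliferative cells of SCC1 (148 sites) and right for proliferative cells of SCC1 against SCC2 (147 sites); the dotted line marks equal shares. Sites of chromosomes 10 and 18 sit at 92% to 100% in SCC1 and lower in SCC2, and 3 of the 4 chromosome 9 sites sit at 97% to 100% in SCC2 and at 43% to 50% in SCC1.

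Several deeply read members on other chromosomes also differed between the tumours. H3f3b K19I, in a gene of the replacement histone H3.3, was in 20% of 1451 reads in SCC1 quiescent cells and 24% of 1212 in SCC1 proliferative cells, against 41% of 282 in SCC2 quiescent cells and 43% of 1014 in SCC2 proliferative cells (adjusted Fisher exact p of 2.55e-19 between the proliferative libraries). There the authors' deposited table gave 5 copies for SCC1 and 3 for SCC2. Gclm N189I, in the regulatory subunit of the enzyme that starts glutathione synthesis, was in 42% of 1504 and 45% of 1196 reads in SCC1 quiescent and proliferative cells, against 43% of 54 and 22% of 469 in SCC2 quiescent and proliferative cells (adjusted p of 4.10e-17). Srm Q206L, in spermidine synthase, was in 35% of 116 and 29% of 246 reads in SCC1 quiescent and proliferative cells and in 70% of 82 reads in SCC2 proliferative cells (adjusted p of 3.24e-09). Dst E2567V was in 44% of 184 and 49% of 271 reads in SCC1 quiescent and proliferative cells, against 23% of 26 and 25% of 143 in SCC2 quiescent and proliferative cells (adjusted p of 3.57e-05). In proliferative cells H3f3b and Srm had the higher share in SCC2, and Gclm and Dst in SCC1. In quiescent cells the Gclm shares were close, at 42% in SCC1 and 43% in SCC2. H3f3b belongs to a gene family with near-identical copies, and how reads were divided among them was not tested.

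A gene held more than 1 member in 8 cases. The 2 in Ccng2, a cyclin of growth arrest, were 2 bp apart (S317R and L318H) and had equal shares in each library that listed them, at 58% in SCC1 quiescent cells, 65% in SCC1 proliferative cells and 31% in SCC2 proliferative cells. Depths at the 2 Ccng2 sites differed by at most 1 read, so the same reads covered both. The 2 in Ift20 were 31 bp apart and were listed in SCC1 quiescent cells only, at 11% of 86 and 12% of 81 reads. Piga, an X-linked gene of the GPI anchor pathway, had R485W in 100% of 24, 29 and 13 reads of SCC1 quiescent, SCC1 proliferative and SCC2 proliferative cells. Its second member, Q58L, was in 54% of 13, 57% of 14 and 36% of 11 reads of those libraries. The remaining pairs were in Adgra3, Prpf8, Serpina3i, Tpr and Trp53, and Serpina3i is one of a cluster of similar genes.

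Expression ratios were known for 25 of the 209 genes with a member. In the authors' deposited table of log2 ratios, quiescent over proliferative, 6 of them were above 0 in both tumours and 15 below 0 in both, against 576 and 841 of all 1609 genes of that table. Their median log2 ratio was -0.54 in SCC1 and -0.85 in SCC2, against -0.61 and -0.49 over all 1609 genes. Values below 0 in the authors' deposited table included the mitotic kinesins Cenpe, at -4.98 for SCC1 and -2.52 for SCC2, and Kif20b, at -4.33 and -2.16, and Lmnb1, at -2.87 and -1.91. Tfrc, which encodes the CD71 used to sort the cells, stood at -1.72 and -1.55 there and carried S455C in 80% of 10 reads in SCC1 quiescent cells, 73% of 11 in SCC1 proliferative cells and 95% of 21 in SCC2 proliferative cells. Above 0 in both tumours in the authors' deposited table were Btg2 (2.03 and 1.25), an antiproliferative gene, Galnt18 (1.24 and 1.53), Tcn2 (1.13 and 2.33), Ndrg1 (1.35 and 0.71), Zfp622 (0.72 and 0.86) and Krt42 (0.10 and 2.86). These ratios came without read counts or errors, so no test was made on them.

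Copy number and chromatin marks overlapped the members as follows. Of the members listed in SCC1, 85 lay in a region the authors called gained, 2 in a loss and 111 in none, and in SCC2 the counts were 76, 3 and 89. For the other single-base changes these counts were 118, 3 and 115 in SCC1 and 75, 4 and 100 in SCC2. The median share in SCC1 proliferative cells was 48% at 76 gained sites and 46.5% at 108 sites without a call, and in SCC2 proliferative cells it was 46% at 76 gained sites and 52% at 89 without a call. By chromosome, members were most numerous on chromosome 11, with 31 beside 24 other single-base changes (56.4% members). The other changes were also most numerous there and on chromosome 2, with 24 on each. Members made up 10 of 13 single-base changes on chromosome 16 (76.9%), the highest share of any chromosome. Their share was 44.1% over all chromosomes used. On the remaining chromosomes it ran from 28.6% on chromosome X to 62.5% on chromosome 12. Accessible chromatin peaks covered 14 members (6.45%), against 28 of the 275 other changes (10.2%), and 1 member, Gnb1l Q140L, lay in a Smad2/3 binding site.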

How the data were processed

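Single-base changes were taken from the deposited mutation table, which gives for each site and library the authors' read count (depth) and the percent of those reads that hold the alternative base, as whole numbers. The authors' quality score was not used. TopHat2 2.0.9, Cufflinks 2.2.0 and Cuffdiff 2.2.0 with build mm10 are named in the submitters' processing notes, whereas no source used here gives the mutation caller. The lowest depth in the table was 10 and the lowest share 11%. Log2 ratios were used as deposited by the authors. Copy numbers per region were taken from the authors' table, whose p-values, deposited by the authors, were not used.

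Alternative reads were rebuilt from the depth and the whole percent. Sites were matched by position and bases, strand and codon were read from the deposited coding change with the standard genetic code, and genes were checked against RefSeq (GRCm38.p6), where 216 of 217 sites lay inside their gene. The remaining site, March7 Q591L, has its symbol turned into a date in the gene column. No genome sequence was used, and 0 of 217 sites fell in a promoter window, so no sequence is shown. Intervals are exact 95% binomial (Clopper-Pearson) and cover counting error alone, as PCR duplicates of 1 molecule count as separate reads.

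Allele shares were compared by two-sided Fisher exact tests per site over the whole table, with Benjamini-Hochberg adjustment at 0.05, and library summaries by exact permutation tests. The difference between tumours in the quiescent minus proliferative difference was tested with a likelihood-ratio test of a binomial model. The Fisher test was tested on simulated data. Quiescent and proliferative libraries of a tumour are paired by the tumour named in the labels. Python 3.11.15, scipy 1.17.1, statsmodels 0.14.6 and pandas 2.3.3 were used.

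Members and gene lists were chosen with earlier results of these data known. Named were Hras, Trp53, members in all 4 libraries, the 10 highest shares per tumour listed in both of its populations, stop codons, members in the 6 gene lists, called sites, and the 3 largest differences in each direction per tumour. Members of these groups without values in the text appear in the plot of sites in all libraries, except Itsn1 T1205S and 1 stop codon. Of the 149 members in both tumours, those outside these groups were summarised. H2afy, Srm, Cisd1, Lmnb1, Ttc12, Nprl2, Myc, Keap1, Pml, Ccng2, Ift20, Krt16 and the genes with expression ratios were chosen after their values were seen. The values of 1 stop codon are not reported here.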

Additional observations from a re-analysis of the deposited data

Results flagged for a closer look

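The quiescent minus proliferative difference of the allele share differed between the tumours at 3 members, by a likelihood-ratio test per site with Benjamini-Hochberg adjustment over the 52 single-base changes listed in all 4 libraries. It called 5 of those 52 (9.62%), and 3 of 29 members is near that background. At Krt15 S433C the difference was -27 points in SCC1 and -1 point in SCC2, with an adjusted p of 0.0164. At Slc35e4 H285L it was -12 and 41 points, with an adjusted p of 0.0166, on 10 reads in SCC2 quiescent cells. At Gclm N189I it was -3 and 21 points, with an adjusted p of 0.0145, and in SCC2 the alternative base was in 43% of 54 reads in quiescent cells and 22% of 469 in proliferative cells. Each test compares single libraries.

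The share of A:T to T:A among the single-base changes of a library moved in opposite directions in the tumours, by 0.959 points in SCC1 and by -0.934 points in SCC2, quiescent minus proliferative. This difference between the tumours was not tested.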

How the results depend on the processing

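The count of 217 members stayed within 1.5 times when chromosomes 17 and Y were added, or when a depth of at least 20 or a share of at least 20% was required, and was 68 without sites listed in both tumours; leaving out 1 tumour gave 168 to 198. The quiescent minus proliferative difference in the share of A:T to T:A (0.0130 points) changed sign to -1.61 with chromosomes 17 and Y, -1.65 at a depth of at least 20, -0.0631 at an allele share of at least 20% and -17.6 without sites listed in both tumours, where SCC2 quiescent cells kept 0 members; leaving out 1 tumour gave -0.934 to 0.959. The difference in the median allele share (-1.75 points) was 0.5 at a depth of at least 20, and -3 to -0.5 with 1 tumour left out. With the tumour as a replicate block the differences were the same, 0.0130 points with an exact sign-flip p of 1 and -1.75 points with a p of 0.5, the smallest that 2 pairs allow, so the block changed no call. None of these was past a threshold, and the cause of the sign changes was not tested.

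Of the 2 members called between populations, 1 was left after the alternative reads were moved by 0.5 points towards the other library, and 1 to 2 with a tumour left out; without SCC1 the called member was Gclm N189I, and without SCC2 both keratin sites were called. The 28 members called between the tumours became 24 after the same move of reads, an alternative chosen after seeing the data. The share with A on the coding strand was 79.4% without sites listed in both tumours, and 89.9% to 90.5% with a tumour left out. Depth limits SCC2 quiescent cells most, with a median of 16 reads at the members.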
